A study of Mus musculus with 8 samples.

Results

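The transcripts of 10 genes for F-BAR membrane proteins, of 24346 genes listed, were compared between Med23+/+ and Med23-/- iOLs, the immature oligodendrocytes formed when oligodendrocyte precursor cells (OPCs) begin to differentiate. The family was chosen by the measured rise of Pstpip2 in these same libraries, and the other 9 genes (Pstpip1, Fnbp1, Fnbp1l, Trip10, Pacsin1, Pacsin2, Pacsin3, Fcho1 and Fcho2) were added as relatives of Pstpip2. Med23 encodes a subunit of the Mediator complex, which links transcription factors to RNA polymerase II. The Med23-/- cells came from mice with floxed Med23 alleles and Cre expressed from the Olig1 locus (Med23 fl/fl;Olig1-cre), and the Med23+/+ cells came from littermates that carry the same floxed alleles (Med23 fl/fl), so that both groups carry floxed Med23. OPCs were purified from mouse brains at postnatal day 7 by binding to an antibody against PDGFRA after plating steps that deplete endothelial cells and microglia. They were grown with the mitogens PDGF-AA at 10 ng/mL and NT-3 at 1 ng/mL, and then received 15 nM T3, the active thyroid hormone, and 10 ng/mL CNTF, a cytokine, for 1 day. RNA from 4 libraries of each genotype was sequenced. The labels do not say whether the replicates came from separate animals, so p-values measure only the spread between these libraries, which may be technical.

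F-BAR proteins form curved dimers that bind the inner face of the plasma membrane and bend it, and most carry a further domain that recruits regulators of the actin cytoskeleton or the endocytic machinery. They act where the membrane is pulled inward during endocytosis and where it is pushed out by actin. Oligodendrocytes extend many actin-filled processes before they wrap axons, and differentiation of these cells is accompanied by extensive remodelling of actin and of membrane traffic.

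The deposited values are FPKM (the fragments of a gene divided by transcript length and by library size), so that levels can be compared between genes per length. Genes above 0 FPKM numbered 15941 to 16363 per Med23+/+ library and 16408 to 16469 per Med23-/- library. Read counts were not used here and the depth is therefore unknown, but the spacing of values under 0.3 FPKM put the worth of 1 read between 0.732 and 1 times that in Med23+/+ replicate 1. Med23 itself had 12.7, 12.2, 12.6 and 12.6 FPKM in Med23+/+ replicates 1 to 4 and 8.40, 7.93, 8.49 and 8.21 FPKM in Med23-/- replicates 1 to 4. The groups did not overlap (two-sided exact permutation test, p = 0.0286, the smallest that 4 libraries against 4 allow), and the Med23-/- mean was 0.658 times the Med23+/+ mean. The FPKM of a whole gene does not show how much of the remaining transcript kept the floxed part. The first principal component of the tested genes held 42.4% of their variance and split the genotypes, and the next held 15.6% and put replicates 1 and 2 (7.90 to 28.7) apart from replicates 3 and 4 (-20.8 to -12.4) in both genotypes. The labels name no batch for this split, so values within each of these pairs of replicates are given for Pstpip2, Fnbp1, Pacsin1, Pacsin2 and Fcho1.

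Pstpip2 stood out among the 10 genes. It lies at chr18:77789914-77882879 (mm10, plus strand) and encodes an F-BAR protein studied mainly in macrophages, where its loss causes autoinflammatory bone disease in mice. Its level was 1.34, 3.01, 1.90 and 5.26 FPKM in Med23+/+ replicates 1 to 4 and 23.7, 22.7, 32.5 and 44.5 FPKM in Med23-/- replicates 1 to 4. The lowest Med23-/- library was above the highest Med23+/+ library. Med23+/+ libraries averaged 2.88 ± 1.74 FPKM and Med23-/- libraries 30.8 ± 10.1 FPKM (SD, n = 4 each), with a ratio of 10.7 and a difference of 3.09 in log2(FPKM + 1). This difference selected the family and is given without a test. The ratio was also 10.7 within replicates 1 and 2 (2.17 and 23.2 FPKM) and within replicates 3 and 4 (3.58 and 38.5 FPKM). Replicate 4 was the highest library of each genotype, and the coefficient of variation was 60.3% in Med23+/+ and 32.8% in Med23-/- libraries. In RNA of whole cultures, a change in the number of cells of a type and a change in RNA per cell cannot be told apart. The span of Pstpip2 overlaps the opposite-strand genes F830208F22Rik and Gm23954, and whether the counting used strand is not given in the sources used here. Overlap was read from whole gene spans here and below, and exons were not compared. Whether reads of these genes entered the Pstpip2 values is therefore unknown.

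**Figure D1:**
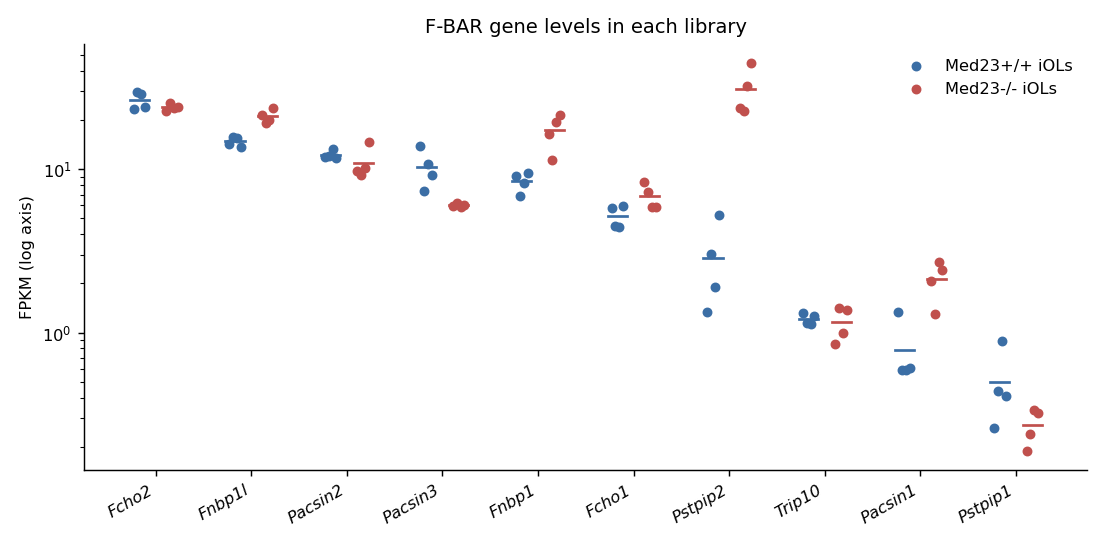
Level of each of the 10 F-BAR genes in FPKM on a log axis, with 1 point per library, a horizontal bar at the mean of the 4 libraries, Med23+/+ in blue and Med23-/- in red. Pstpip2 moves from 2.88 to 30.8 FPKM on average with no overlap between the genotypes, whereas most of the other genes shift by little beside the distance between genes.

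The order of the 10 genes by mean FPKM differed between the genotypes. Pstpip2 was rank 7 of 10 in Med23+/+ and rank 1 in Med23-/- iOLs, where its libraries (22.7 to 44.5 FPKM) overlapped those of Fcho2 (22.6 to 25.6 FPKM). In Med23+/+ iOLs Fcho2 was the most abundant, at 23.3 to 29.6 FPKM, and lay above Fnbp1l (13.6 to 15.8 FPKM) without overlap. Next were Pacsin2 (11.7 to 13.3 FPKM) and Pacsin3 (7.33 to 13.9 FPKM), which overlapped each other, and Pacsin3 overlapped Fnbp1 (6.88 to 9.54 FPKM). Trip10, Pacsin1 and Pstpip1 were lowest in Med23+/+ iOLs, and each overlapped the next in the order. In Med23-/- iOLs Fnbp1 had moved above Pacsin2, with which it overlapped, Pacsin3 had moved below Fcho1, which it also overlapped, and Pacsin1 above Trip10, with which it also overlapped. The summed level of the 10 genes was 81.2 to 85.4 FPKM in Med23+/+ and 105 to 144 FPKM in Med23-/- libraries. Without Pstpip2 the Med23+/+ libraries summed to 79.7 ± 3.24 FPKM and the Med23-/- libraries to 89.6 ± 7.48 FPKM (SD, n = 4 each), and the libraries of both genotypes overlapped (76.1 to 83.5 and 81.9 to 99.8 FPKM). Pstpip2 took 1.62% to 6.47% of the summed level in Med23+/+ libraries and 21.3% to 30.8% in Med23-/- libraries.

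**Figure D2:**
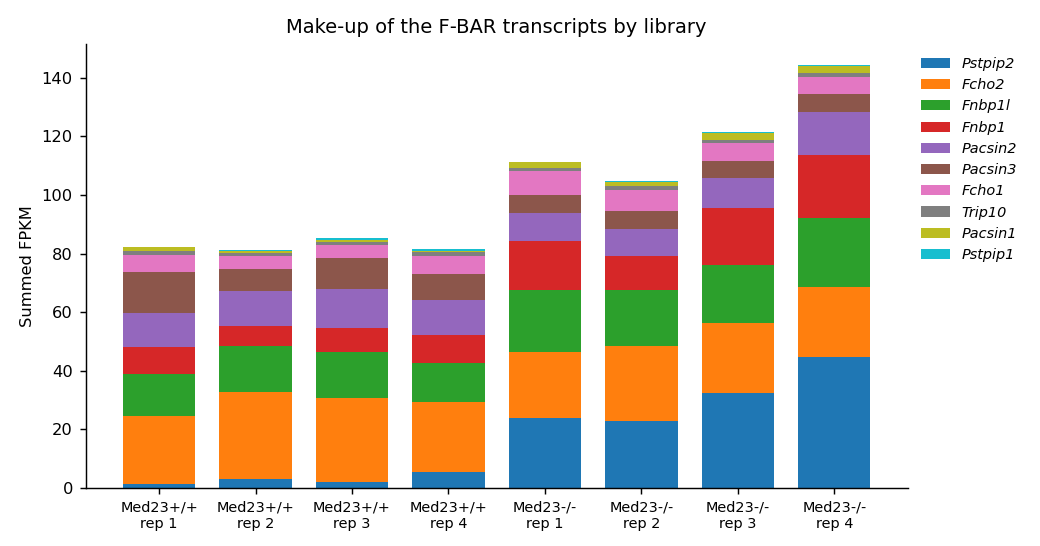
Summed FPKM of the 10 F-BAR genes in each of the 8 libraries, stacked by gene from 0. The Pstpip2 segment at the base takes 21.3% to 30.8% of each Med23-/- column and 1.62% to 6.47% of each Med23+/+ column.

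The test covered genes that averaged 1 FPKM or more across the 8 libraries, and 8 of the 9 relatives of Pstpip2 passed this minimum. A gene is said to have risen or fallen where limma gave an adjusted p under 0.05 (Benjamini-Hochberg over all 12328 genes tested) on log2(FPKM + 1), a scale that understates the change of genes with low values. Fnbp1, Fnbp1l and Pacsin1 rose and Pacsin3 fell, and Trip10, Pacsin2, Fcho1 and Fcho2 did not pass the test. Pacsin1 averaged 0.783 FPKM in Med23+/+ and 2.12 FPKM in Med23-/- libraries. It thus reached the minimum, and entered the counts below, only through the genotype in which it was higher. With no minimum FPKM it also passed (limma adjusted p = 0.0162). The 3 that rose are 37.5% of the 8 tested, and 15.9% of all genes tested rose. The 1 that fell is 12.5% of the 8, and 14.1% of all genes fell. With a fold change above 2 on the log2(FPKM + 1) scale as a further condition, 0 of the 8 rose and 0 fell, and 2.98% and 1.75% of all genes did so. By the ratio of mean FPKM alone, a rule added after the data were seen, Fnbp1 and Pacsin1 were above 2, so that 2 of the 8 were higher and 0 lower by more than 2 times, as were 6.08% and 2.62% of all genes. The libraries of the genotypes did not overlap for 2 of the 8 that were higher in Med23-/- iOLs and for 1 that was lower, and this held for 16.3% and 15.3% of all genes. With 8 genes, each of these shares rests on few genes. The median difference of the 8 genes was 0.15 on the log2(FPKM + 1) scale and that of all genes -0.01.

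**Figure D3:**
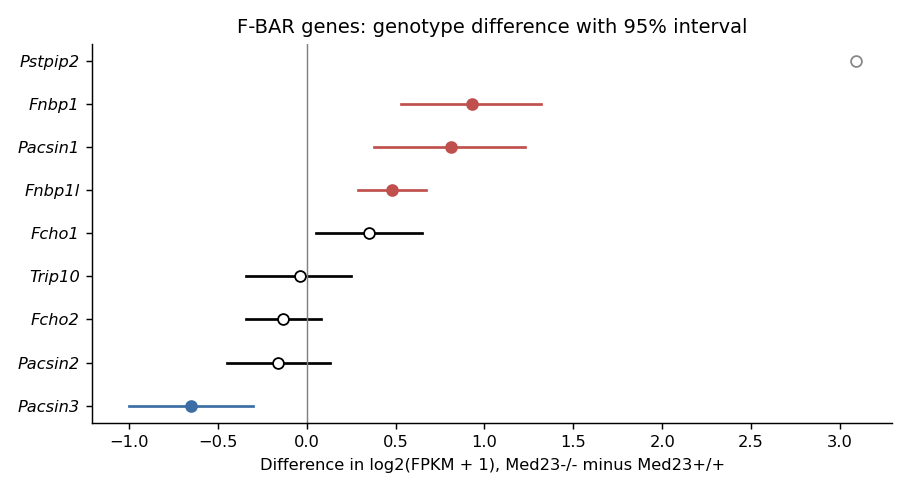
Difference in log2(FPKM + 1), Med23-/- minus Med23+/+, for the F-BAR genes over 1 FPKM on average, with 95% intervals of single genes, not adjusted for the number of genes. Filled red points rose and the filled blue point fell, open black points did not pass the adjusted p, and Pstpip2 (open grey, 3.09) is drawn without an interval because it selected the family.

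Pstpip1, the closest relative of Pstpip2, binds the same PEST-type tyrosine phosphatases and, in immune cells, the inflammasome protein pyrin. It lies at chr9:56089962-56128888 on the plus strand. Its level was 0.261, 0.440, 0.889 and 0.410 FPKM in Med23+/+ replicates 1 to 4 and 0.189, 0.239, 0.334 and 0.322 FPKM in Med23-/- replicates 1 to 4. The genotypes overlapped, and Med23+/+ replicate 3 was the highest library. Pstpip1 did not reach the minimum for testing. In the same comparison without a minimum its difference was -0.22 on the log2(FPKM + 1) scale (limma adjusted p = 0.214 over 18429 genes).

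Fnbp1, Fnbp1l and Trip10 encode the FBP17, Toca-1 and CIP4 proteins, which bind active Cdc42 and recruit N-WASP and dynamin to curved membrane. Fnbp1 (chr2:31026206-31142008, minus strand) had 9.08, 6.88, 8.24 and 9.54 FPKM in Med23+/+ replicates 1 to 4 and 16.5, 11.4, 19.6 and 21.6 FPKM in Med23-/- replicates 1 to 4. Replicate 2 was the lowest library of each genotype, and the genotypes did not overlap. The means were 8.43 ± 1.17 and 17.3 ± 4.46 FPKM (SD, n = 4 each), a ratio of 2.05, and the difference in log2(FPKM + 1) was 0.93 (standard error 0.18, limma adjusted p = 0.00408). The ratio of the means was 1.75 within replicates 1 and 2 and 2.32 within replicates 3 and 4, and the difference between these ratios was not tested.

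Fnbp1l (chr3:122538719-122619715, minus strand) had 14.3, 15.8, 15.5 and 13.6 FPKM in Med23+/+ replicates 1 to 4 and 21.4, 19.3, 19.9 and 23.6 FPKM in Med23-/- replicates 1 to 4. All Med23-/- libraries were above all Med23+/+ libraries. The means were 14.8 ± 1.02 and 21.1 ± 1.89 FPKM (SD, n = 4 each), and the difference in log2(FPKM + 1) was 0.48 (standard error 0.09, limma adjusted p = 0.00269). Fnbp1l overlaps the opposite-strand gene Gm43569, to which the same limit on strand applies. It also overlaps the same-strand genes Mir7657 and Gm42994, which strand would not separate. Trip10 (chr17:57249455-57263665, plus strand) was the low member of this group, at 1.12 to 1.31 FPKM in Med23+/+ and 0.848 to 1.41 FPKM in Med23-/- libraries. Its difference was -0.04 on the log2(FPKM + 1) scale with a 95% interval from -0.34 to 0.25 (limma adjusted p = 0.835), so that neither direction was established.

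The pacsins, also called syndapins, join dynamin and N-WASP to endocytic and caveolar membrane. Pacsin1, the form best known from neurons, lies at chr17:27655509-27711482 on the plus strand. It had 1.34, 0.590, 0.592 and 0.608 FPKM in Med23+/+ replicates 1 to 4 and 2.07, 1.29, 2.69 and 2.43 FPKM in Med23-/- replicates 1 to 4. Med23+/+ replicate 1 stood above the other 3 libraries of its genotype and overlapped Med23-/- replicate 2. The means were 0.783 ± 0.373 and 2.12 ± 0.607 FPKM (SD, n = 4 each), a ratio of 2.71, and the difference in log2(FPKM + 1) was 0.81 (standard error 0.19, limma adjusted p = 0.011). With 0.1 in place of 1 added to the FPKM the difference of this low gene was 1.36 (limma adjusted p = 0.0114). The ratio of the means was 1.74 within replicates 1 and 2, which hold the high Med23+/+ library, and 4.26 within replicates 3 and 4.

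Pacsin3, a form abundant in muscle, lies at chr2:91255954-91264679 on the plus strand and was the 1 gene of the family that fell. It had 13.9, 7.33, 10.7 and 9.16 FPKM in Med23+/+ replicates 1 to 4 and 5.93, 6.25, 5.85 and 6.07 FPKM in Med23-/- replicates 1 to 4. The genotypes did not overlap, and the spread was much wider in Med23+/+ (coefficient of variation 27.3%) than in Med23-/- libraries (2.90%). The means were 10.3 ± 2.80 and 6.03 ± 0.175 FPKM (SD, n = 4 each), and the difference in log2(FPKM + 1) was -0.65 (standard error 0.15, limma adjusted p = 0.0115). The span of the opposite-strand lincRNA gene Gm17281 overlaps that of Pacsin3, and whether its reads entered the Pacsin3 values is likewise unknown.

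Pacsin2, the widely expressed form that also shapes caveolae, lies at chr15:83375607-83464606 on the minus strand and overlaps the same-strand processed pseudogene Gm5417. It had 11.8, 12, 13.3 and 11.7 FPKM in Med23+/+ replicates 1 to 4 and 9.77, 9.24, 10.2 and 14.6 FPKM in Med23-/- replicates 1 to 4. Of the Med23-/- libraries, 3 were below all Med23+/+ libraries and replicate 4 was above all of them. The difference was -0.16 on the log2(FPKM + 1) scale with a 95% interval from -0.45 to 0.13 (limma adjusted p = 0.378). The ratio of the means was 0.798 within replicates 1 and 2 and 0.992 within replicates 3 and 4, which hold the high Med23-/- library. Without Med23-/- replicate 4 the difference was -0.30 and passed the test (limma adjusted p = 0.0273).

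Fcho1 and Fcho2 act at the start of clathrin-mediated endocytosis, where they gather the AP2 adaptor at nascent coated pits. Fcho1 (chr8:71708387-71725716, minus strand) had 5.76, 4.46, 4.42 and 5.94 FPKM in Med23+/+ replicates 1 to 4 and 8.34, 7.22, 5.90 and 5.87 FPKM in Med23-/- replicates 1 to 4. Med23-/- replicates 1 and 2 lay above all Med23+/+ libraries, and replicates 3 and 4 lay within their range. The difference was 0.35 on the log2(FPKM + 1) scale (standard error 0.13), which did not pass the adjusted test (limma adjusted p = 0.0774). The ratio of the means was 1.52 within replicates 1 and 2 and 1.14 within replicates 3 and 4. Fcho2 (chr13:98723403-98815449, minus strand) had 23.3 to 29.6 FPKM in Med23+/+ and 22.6 to 25.6 FPKM in Med23-/- libraries, which overlapped. Its difference was -0.13 on the log2(FPKM + 1) scale with a 95% interval from -0.34 to 0.08 (limma adjusted p = 0.349). Fcho2 overlaps the opposite-strand genes Gm47550 and Gm47551 and the same-strand gene D130062J10Rik.

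A promoter window of each of the 4 genes that passed the test is shown because the study ties Med23 to Sp1, a transcription factor known to bind GC boxes. The study found the Sp1 motif most enriched in promoters of genes that fell in Med23-/- iOLs, and describes Med23 as a co-activator of Sp1. It also mapped Sp1, the acetyltransferase P300 and the histone mark H3K27Ac in iOLs of both genotypes, and these maps were not used here. At sites bound by both Sp1 and P300, it reported no difference in Sp1 binding and less P300 and H3K27Ac in Med23-/- iOLs. Of the genes shown here, only Pacsin3 fell, and Fnbp1, Fnbp1l and Pacsin1 rose. Promoter windows of 300 bases, from 250 bases before to 50 bases after a transcription start, were taken from RefSeq on GRCm38.p6 (mm10), and 9 of the 10 genes, all but Pstpip2, matched with 13 windows in all. A GC box was taken as GGGCGG or its reverse complement CCGCCC. At least 1 GC box was found in 9 of the 13 windows, which belong to 8 genes, and in 35.7% of all 32851 windows of this length. The shares over all windows are not matched to the members for GC content or expression, so no excess can be read from them. The stretches below leave off the bases that the annotation places in an untranslated region, run 5′ to 3′ on the strand of the gene, and have each GC box in capitals. They lie at chr2:31142009-31142258 (Fnbp1, minus strand), chr3:122619716-122619964 (Fnbp1l, minus strand), chr17:27684989-27685180 (Pacsin1, plus strand) and chr2:91256563-91256812 (Pacsin3, plus strand).
Fnbp1: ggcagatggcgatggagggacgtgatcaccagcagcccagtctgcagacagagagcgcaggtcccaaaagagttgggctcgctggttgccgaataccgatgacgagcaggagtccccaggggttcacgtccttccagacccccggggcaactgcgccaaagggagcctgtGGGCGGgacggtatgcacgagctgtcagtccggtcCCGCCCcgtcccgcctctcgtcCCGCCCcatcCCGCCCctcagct
Fnbp1l: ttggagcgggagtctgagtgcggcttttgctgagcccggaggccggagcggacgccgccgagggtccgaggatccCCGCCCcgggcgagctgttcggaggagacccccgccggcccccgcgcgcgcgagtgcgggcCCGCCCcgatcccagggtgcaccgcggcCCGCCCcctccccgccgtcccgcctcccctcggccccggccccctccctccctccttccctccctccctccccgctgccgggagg
Pacsin1: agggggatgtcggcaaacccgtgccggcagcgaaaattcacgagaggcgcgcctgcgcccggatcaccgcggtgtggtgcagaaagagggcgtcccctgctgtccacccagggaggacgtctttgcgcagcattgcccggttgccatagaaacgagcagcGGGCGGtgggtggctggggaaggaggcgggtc
Pacsin3: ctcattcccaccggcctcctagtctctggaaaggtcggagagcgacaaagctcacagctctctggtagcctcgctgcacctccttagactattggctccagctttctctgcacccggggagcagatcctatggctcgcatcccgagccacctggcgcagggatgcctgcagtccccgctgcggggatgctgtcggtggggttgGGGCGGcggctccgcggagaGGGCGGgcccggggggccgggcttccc
The Fnbp1 stretch holds 4 GC boxes, 3 of which lie within the last 45 bases before the start, and the Fnbp1l stretch holds 3. The Pacsin1 stretch holds 1 and the Pacsin3 stretch 2. These last stretches lie inside the annotated gene span, which begins at chr17:27655509 for Pacsin1 and at chr2:91255954 for Pacsin3. They thus precede internal starts, and no window covered the 5′ end of the Pacsin1 or the Pacsin3 span. Counted over whole windows of 300 bases, the first Fnbp1 window held 5 GC boxes and its other window 0, the Fnbp1l window held 3, the Pacsin1 window 2 and each of the Pacsin3 windows 2. Among the genes that did not pass the test, the Trip10 window held 4, the first Pacsin2 window 2 and its other windows 0, the Fcho1 window 2 and the Fcho2 window 1, which lies 8 bases after the start. The Pstpip1 window held 0. Of all windows, 10.7% held 3 or more. Genes that passed the test and genes that did not both held GC boxes. These are matches of letters, and binding of Sp1 was not measured here.

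The genes whose profile over the 8 libraries was closest to that of Pstpip2 were sought by the root mean square difference of log2(FPKM + 1), centred on the mean of each gene, over 12327 genes. The closest were Adamts9 (0.433), Sox9 (0.522), Rph3a (0.559), March1 (0.565) and Tacc2 (0.613), against a median of 1.626 over all genes. Adamts9, which encodes a secreted protease, averaged 1.49 FPKM in the Med23+/+ and 13.7 FPKM in the Med23-/- libraries. Sox9, a transcription factor of glial progenitors, averaged 6.68 and 49.1 FPKM. Of the F-BAR relatives Fnbp1 came closest, at rank 406, followed by Pacsin1 at rank 821 and Fnbp1l at rank 1506, and Pacsin3 was farthest at rank 11804. These ranks are mostly set by the genotype difference that selected Pstpip2. With each gene centred within each genotype, the closest were Cenpf (0.213), Pisd-ps1 (0.219), Cenpn (0.219), Fam19a4 (0.221) and Tnfaip8 (0.228), and the median was 0.482. By this measure Fnbp1 was at rank 1308, Pacsin2 at rank 1705, Fnbp1l at rank 4417, Pacsin1 at rank 9933 and Pacsin3 at rank 11594. A gene with no variation at all would score 1.612 by the first measure and 0.464 by this one. Fnbp1l, at 0.461 here, was hardly closer to Pstpip2 than such a gene. Cenpf and Cenpn encode kinetochore proteins of dividing cells. Among pairs of the other members, Fcho2 and Trip10 were closest over the 8 libraries (0.169), and the genes that rose, Fnbp1 and Pacsin1, were next (0.190). Fcho2 and Trip10 differed little between the genotypes (-0.13 and -0.04 in log2(FPKM + 1)), so their low value does not show a shared pattern. The libraries share their depth and processing, and these likenesses are descriptions.

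Beyond the 10 genes, 107 genes of 7 related lists were examined, of which 89 were tested, 17 rose and 24 fell. Over all genes tested 15.9% rose and 14.1% fell. These lists were chosen with earlier results in view. Among 13 other F-BAR genes 8 were tested, 3 rose (37.5%) and 1 fell (12.5%), beside the same 15.9% and 14.1% of all genes, with a median difference of 0.07 in log2(FPKM + 1). Gas7, which links membrane to actin and is abundant in neurons, rose from 2.77 ± 0.801 to 13.7 ± 2.52 FPKM (SD and n = 4 for each genotype here and below), which is 1.97 in log2(FPKM + 1) (limma adjusted p = 5.48e-05). Srgap2, whose inverse F-BAR domain pushes the membrane outward, rose from 10.1 ± 0.793 to 28.9 ± 4.88 FPKM (1.42 in log2(FPKM + 1), limma adjusted p = 4.2e-05). Its relative Srgap3 rose by 0.48 (limma adjusted p = 0.00102). Fchsd2, which promotes actin assembly at clathrin pits, fell from 114 ± 9.32 to 85.0 ± 5.05 FPKM (-0.42 in log2(FPKM + 1), limma adjusted p = 0.00462).

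**Figure D4:**
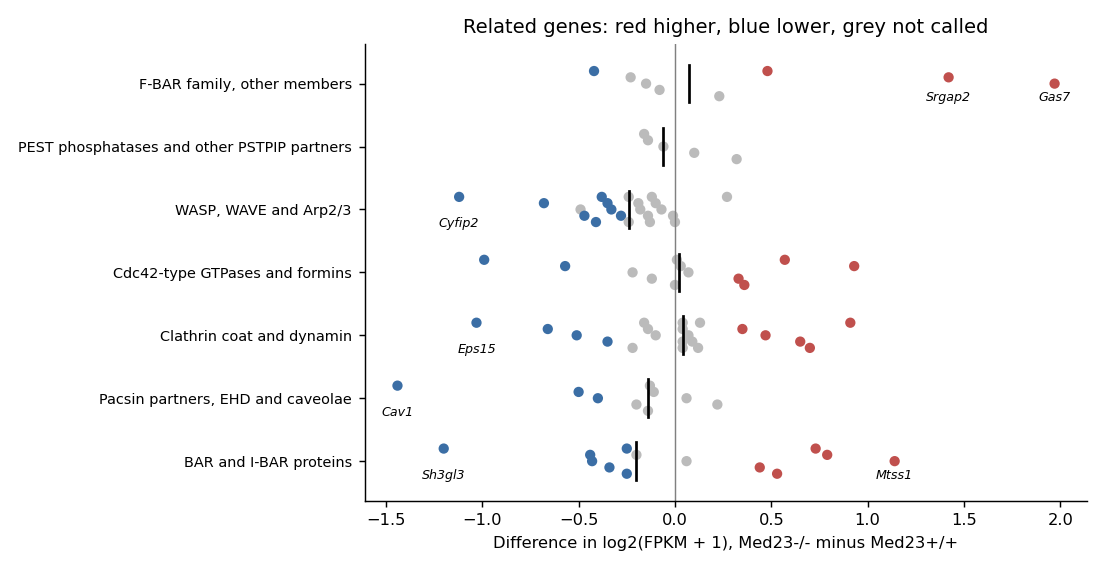
Difference in log2(FPKM + 1), Med23-/- minus Med23+/+, for the tested genes of the 7 related lists, with red points for genes that rose, blue for genes that fell, grey for genes that did not pass and a black bar at the median of each list. The median of the WASP, WAVE and Arp2/3 list is at -0.24, and Gas7 (1.97) and Cav1 (-1.44) lie farthest out.

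Partners of the Pstpip and Toca proteins were read next. Of 10 PEST phosphatases and other Pstpip partners, 5 were tested and 0 passed by limma, with 1 at an unadjusted p under 0.05. That gene was Abl1, a tyrosine kinase, at 15.9 ± 1.18 and 20.3 ± 3.08 FPKM (limma adjusted p = 0.0503), named after its values were seen. Abl1 passed under some alternatives, among them leaving out Med23-/- replicate 3 or replicate 4, each of which brought the count of the list to 1. Ptpn12, the PEST phosphatase with the highest level, was at 17.6 and 15.9 FPKM (-0.14 in log2(FPKM + 1), limma adjusted p = 0.464), and Mefv, which encodes pyrin, was listed at 0 in all 8 libraries. Of 24 genes of WASP, WAVE and the Arp2/3 complex, which nucleate branched actin, 21 were tested, 8 fell and 0 rose by limma (median -0.24), and 0 of those tested were higher at an unadjusted p under 0.05. With no minimum FPKM, 1 of the 24 rose, Wipf3, at 0.261 ± 0.0526 and 0.598 ± 0.140 FPKM. The 8 are 38.1% of those tested beside 14.1% of all genes, and 5 of the list fell without Med23+/+ replicate 4. Cyfip2, a subunit of the WAVE complex, fell from 220 ± 15.7 to 101 ± 17.5 FPKM (-1.12 in log2(FPKM + 1), limma adjusted p = 0.000216). Wasf1 fell from 122 ± 4.04 to 76.0 ± 9.10 FPKM (-0.68, limma adjusted p = 0.000762). Wasl, which encodes the N-WASP that Toca proteins and pacsins recruit, fell from 27.3 ± 1.44 to 22.3 ± 1.17 FPKM (-0.28, limma adjusted p = 0.017), and Cyfip1 fell by 0.33 (limma adjusted p = 0.0209).

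Of 13 Cdc42-type GTPases and formins, the switches and straight-filament nucleators beside these proteins, 12 were tested, 4 rose (33.3%) and 2 fell (16.7%), with a median of 0.02. The formin gene Diaph3 rose from 4.10 ± 1.06 to 8.69 ± 1.76 FPKM (0.93 in log2(FPKM + 1), limma adjusted p = 0.00388) and Daam1 from 16.7 ± 1.36 to 21.9 ± 3.12 FPKM (0.36, limma adjusted p = 0.0292). Fmnl2, also a formin gene, fell from 40.2 ± 4.86 to 19.7 ± 1.31 FPKM (-0.99, limma adjusted p = 0.000106), and Rac1, the GTPase that activates WAVE, fell from 290 ± 3.96 to 196 ± 23.6 FPKM (-0.57, limma adjusted p = 0.00189). Of 21 genes of the clathrin coat and dynamin, all tested, 5 rose (23.8%) and 4 fell (19%), with a median of 0.04, beside 15.9% and 14.1% of all genes. Epn2, an epsin that bends the pit membrane, rose by 0.91 (limma adjusted p = 0.000245), and the adaptor gene Dab2 rose by 0.70 (limma adjusted p = 0.000748). Eps15, whose protein is bound by the Fcho proteins, fell from 31.2 ± 3.34 to 14.8 ± 2.10 FPKM (-1.03, limma adjusted p = 0.000186), and Dnm3, a dynamin gene, fell by 0.66 on this scale (limma adjusted p = 0.000605).

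Of 10 genes of EHD proteins, other pacsin partners and caveolae, 9 were tested, 3 fell (33.3%) and 0 rose (median -0.14), and 0 were higher at an unadjusted p under 0.05 in limma. Cav1, the core protein of caveolae, fell from 7.95 ± 1.89 to 2.26 ± 0.423 FPKM (-1.44 in log2(FPKM + 1), limma adjusted p = 0.000215), and Ehd1 fell by 0.40 (limma adjusted p = 0.00602). Of 16 genes of other BAR and I-BAR proteins 13 were tested, 5 rose (38.5%) and 6 fell (46.2%), with a median of -0.20. Beside both of these lists, 15.9% of all genes tested rose and 14.1% fell. Mtss1, an I-BAR gene, rose from 19.5 ± 1.25 to 44.5 ± 5.12 FPKM (1.14, limma adjusted p = 4.59e-05), and Amph, amphiphysin, rose by 0.79 (limma adjusted p = 0.000342). Sh3gl3, an endophilin gene, fell from 100 ± 15.6 to 43.2 ± 6.55 FPKM (-1.20, limma adjusted p = 0.000217), and Arhgap17 fell by 0.44 (limma adjusted p = 0.00758).

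Markers of the cells that these cultures could hold were read beside the F-BAR genes. The 15 markers of microglia and macrophages, in which Pstpip2 is best known, all averaged under 1 FPKM over the 8 libraries, 11 were at 0 in some library, and the highest value of any was 2.06 FPKM, of Cd68. Of the 15, 13 had a higher mean in Med23-/- and 2 in Med23+/+ libraries, and the libraries of the genotypes did not overlap for 1, Laptm5, at 0.135 ± 0.0846 and 0.266 ± 0.0297 FPKM (SD, n = 4 each). Among all genes tested, which leave these markers out, 16.3% were higher in Med23-/- libraries without overlap and 15.3% lower. The summed level of the 15 markers was 2.83, 4.11, 2.58 and 2.08 FPKM in Med23+/+ replicates 1 to 4 and 3.74, 4.73, 4.47 and 5.46 FPKM in Med23-/- replicates 1 to 4. Of these sums, 3 of the 4 in Med23-/- libraries were above all those in Med23+/+ libraries. Their part in the values of Pstpip2 was not tested.

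Neuron markers, like Pacsin1, were higher in Med23-/- libraries. Of 10 such markers 9 were tested and 8 rose, beside 15.9% of all genes tested. The 10 markers summed to 208 to 228 FPKM in Med23+/+ and 298 to 386 FPKM in Med23-/- libraries. The largest contributor, Map2, averaged 161 and 202 FPKM, and it carried most of the sum in the Med23+/+ libraries. Among the Med23-/- libraries Pacsin1 and the neuron markers were both highest in replicates 3 and 4 and lowest in replicate 2. Without Map2 the other 9 markers summed to 77.6, 50, 48.4 and 53.6 FPKM in Med23+/+ replicates 1 to 4 and to 132, 98.5, 194 and 164 FPKM in Med23-/- replicates 1 to 4. Replicate 1, the Med23+/+ library in which Pacsin1 was high, was thus also the highest Med23+/+ library in this sum. With Map2 included this did not hold: Med23+/+ replicate 1 summed to 226 FPKM and replicate 2, with Pacsin1 at 0.590 FPKM, to 228 FPKM. Of the 10 neuron markers, 6 were highest in replicate 1 among the Med23+/+ libraries. The part of neuron transcripts in the values of Pacsin1, Gas7 and Amph was not tested.

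**Figure D5:**
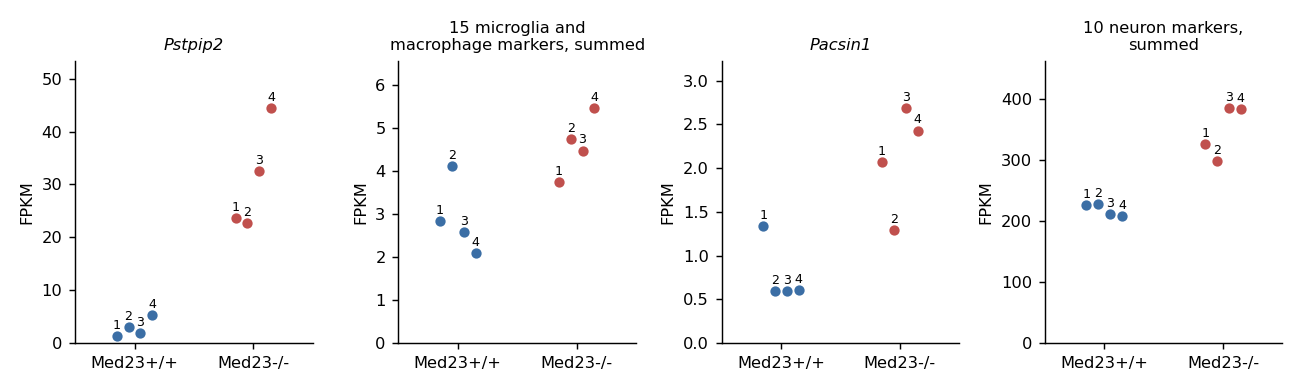
FPKM in each library, numbered by replicate, of Pstpip2, the 15 summed microglia and macrophage markers, Pacsin1 and the 10 summed neuron markers, on linear axes from 0. The microglia and macrophage sum is 2.08 to 4.11 FPKM in Med23+/+ and 3.74 to 5.46 FPKM in Med23-/- libraries, and the neuron sum is higher in the 4 Med23-/- libraries (298 to 386 FPKM) than in the 4 Med23+/+ libraries (208 to 228 FPKM).

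The stage markers of the lineage differed between the genotypes as well. For comparison with the counts of this paragraph, 15.9% of all genes tested rose and 14.1% fell. Of 8 markers of myelinating oligodendrocytes 7 were tested and 7 fell, from a summed level of 838 to 1010 FPKM to one of 218 to 409 FPKM, of which Cnp averaged 442 and 194 FPKM. Of 6 OPC markers 3 rose and 1 fell, and their summed level was 1470 to 1640 FPKM in Med23+/+ and 1530 to 1700 FPKM in Med23-/- libraries. Those that rose were Pdgfra, the receptor used for the purification (121 and 334 FPKM on average), Cspg4 (38.9 and 103 FPKM) and Cacng4 (156 and 242 FPKM). The one that fell was Gpr17, a receptor of committed precursors, at 698 and 355 FPKM on average, and without it the other 5 summed to 747 to 945 FPKM in Med23+/+ and 1220 to 1340 FPKM in Med23-/- libraries. Of 3 oligodendrocyte lineage markers 1 fell, and Olig1 averaged 706 and 686 FPKM. Among 7 astrocyte markers 6 were tested, 1 rose and 2 fell, and Aldoc averaged 50.7 and 50.9 FPKM. The 6 endothelial and pericyte markers summed to 0.609 to 1.17 FPKM and 1.13 to 3.31 FPKM, of which Kdr averaged 0.505 and 1.65 FPKM. The part of these shifts in the F-BAR values was not tested.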

How the data were processed

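The 4 Med23+/+ and 4 Med23-/- RNA-seq libraries of iOLs were grouped by the labels. The authors used Cutadapt for trimming, Tophat2 with default options for alignment to mm10, and cuffdiff (-b -u) for quantification, and the deposited values are FPKM per library. Tool versions, the annotation and the use of strand are not given in the sources used here. The table also holds pooled values per genotype and the authors' own fold changes, p-values and significance calls, which were not used, and 0 library columns were left out. No read counts were used, so the precision set by depth is unknown.

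From the FPKM, log2(FPKM + 1) was compared by limma (version 3.58.1, R version 4.3.3, eBayes with trend) for the 12328 genes averaging 1 FPKM or more, without scaling between libraries, at a Benjamini-Hochberg adjusted p under 0.05. A fold change above 2 on this scale was an alternative, and after the data were seen a ratio of mean FPKM above 2, the scale of the study's own criterion, was added. In simulated data with 200 of 12237 genes changed, 193 (96.5%) were recovered, 0 in the wrong direction, and 6 other genes were called. The planted changes were larger than those of the members that passed the test. They were placed only in genes of higher level, with normally distributed spread. The recovered share therefore does not give the power for the members. Other alternatives were the pseudocount, the FPKM minimum, quantile and median-ratio scaling, sample weights, no trend, a replicate block, a covariate for the split of replicates 1 and 2 from 3 and 4, and each library left out. Single values were compared by exact permutation.

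The members and gene lists were chosen with earlier results of these data known. The genes named are the 10 members, Med23, in each related list the 2 genes with the highest and the 2 with the lowest difference among those called with at least 5 FPKM in the higher genotype together with those called with a fold change above 2, in each marker list the gene with the highest mean, and the 5 genes most like Pstpip2 by each measure. Abl1, Ptpn12, Mefv, Wipf3, Laptm5, Pdgfra, Cspg4, Cacng4, Gad1, Gfap and Nefm were named after their values were seen. Coordinates come from GENCODE vM21 and promoters from RefSeq. Symbols of Diaph3 and its relatives were matched through older names. Python 3.11.15, numpy 2.4.6, pandas 2.3.3, scipy 1.17.1 and matplotlib 3.10.9 were used.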

Additional observations from a re-analysis of the deposited data

Results flagged for a closer look

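Pacsin1 in Med23+/+ replicate 1, at 1.34 FPKM, lay far above the other 3 libraries of its genotype (0.590 to 0.608 FPKM). The gap to the nearest library was 0.977 of the range of the group, above the 95% critical value of Dixon's test for 4 libraries. It was the 1 such value among 24 groups examined, and chance gives about 1 in 20. In the same library 6 of 10 neuron markers and 5 of 7 astrocyte markers were at their highest among the Med23+/+ libraries. Gad1 was at 12.4 FPKM there and at 5.68 to 8.72 FPKM in the other 3, and Gfap was at 30 FPKM and 6.56 to 10.8 FPKM. Other markers went the other way. Map2 (149 FPKM) and Nefm (1.39 FPKM) were lowest in this library among the Med23+/+ libraries. Aldoc, at 46.1 FPKM there, was below Med23+/+ replicates 3 and 4 (61.4 and 53.8 FPKM). Gad1, Gfap and Nefm were named after their values were seen, and the part of neurons and astrocytes in the Pacsin1 value was not tested. Without this library the Pacsin1 difference in log2(FPKM + 1) was 0.94 (limma adjusted p = 0.00555).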

How the results depend on the processing

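Fnbp1, Fnbp1l, Pacsin1 and Pacsin3 kept their direction and passed limma's adjusted test under each alternative fit that gave a value (17, 17, 16 and 17 fits). The differences in log2(FPKM + 1) ran from 0.77 to 1.10, 0.43 to 0.52, 0.65 to 0.95 and -0.79 to -0.50, with 1.36 for Pacsin1 in log2(FPKM + 0.1), and the adjusted p reached at most 0.0132, 0.0112, 0.0325 and 0.0337. Fcho1 passed in 0 of 17 (adjusted p 0.0596 to 0.211) and Pacsin2 in 1 of 17 (0.0273 to 0.649). Trip10 turned to 0.03 without Med23-/- replicate 1 and ran from -0.10 to 0.03 with each library left out. Pstpip2 differed by 2.73 to 3.35, and by 3.50 in log2(FPKM + 0.1). Trip10 and Pacsin1 had no value at a minimum average of 5 FPKM.

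With each library left out in turn, 1 to 2 of the members fell. With a fold change above 2 in log2(FPKM + 1) as well as the adjusted p, 0 members rose and 0 fell, 367 and 216 of all genes did (1957 and 1738 by adjusted p alone), and 3 and 4 genes of the 7 lists did. With that fold change alone these were 0 and 0 members, 388 and 257 of all genes, and 3 and 4 list genes. By a ratio of mean FPKM above 2 alone, chosen after seeing the data, they were 2 and 0 members, 749 and 323 of all genes, and 4 and 5 list genes. At a minimum average of 5 FPKM 1281 of 9434 genes rose. Values without read counts leave the lowest members, Pstpip1, Trip10 and Pacsin1, the least certain.

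Same-numbered libraries of the genotypes deviated from their group means with correlations of 0.13, -0.096, -0.026 and 0.159. Med23+/+ replicate 1 correlated best with Med23-/- replicate 2 (0.162). These low correlations over all tested genes cannot show whether the numbers mark pairs, which the labels do not say. In the second principal component, same-numbered libraries had the same sign. A replicate block changed the standard error from 0.18 to 0.11 for Fnbp1 and from 0.09 to 0.1 for Fnbp1l. With the replicate block 3 members rose and 1 fell, and 2085 and 1835 of all genes did.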
